A study of Mus musculus with 18 samples.

Results

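Stard13, Prtn3, Glipr2, Emb, Cav1, Pi16, Pglyrp1 and Nedd4 are 8 genes that were far lower in peritoneal macrophages lacking the transcription factors Bhlhe40 and Bhlhe41 than in wild-type peritoneal macrophages. They were chosen by that difference in transcript level between 2 double knockout and 2 wild-type peritoneal libraries, so their peritoneal values are given as a description without a test. The tests of the 8 genes compare alveolar macrophages, whose libraries took no part in the choice. The spread used in these tests was estimated over all 12 libraries, including the peritoneal ones, so the tests are not fully independent of the choice. All 8 were measured, and all 8 were among the 12303 features that passed the filter on low values, out of 24732 features in the tables. The filter asked for at least 1 TPM (a transcript abundance that corrects for length and sequencing depth) in at least 2 libraries, and Stard13 met it in its 2 wild-type peritoneal libraries alone, the group in which it was high. Nedd4, Prtn3, Pi16 and Pglyrp1 met it through peritoneal libraries as well.

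Polyadenylated RNA was sequenced from macrophages of C57BL/6 mice, 2 libraries for each of 6 groups. Wild-type (WT) cells were Bhlhe40+/+Bhlhe41+/+ and double knockout (DKO) cells were Bhlhe40-/-Bhlhe41-/-. The sources were alveolar macrophages of digested steady-state lungs (CD11c+ SiglecF+ with low CD11b), alveolar macrophages of mixed bone marrow chimeras sorted through the same gate, and steady-state peritoneal macrophages from lavage (CD11b+ F4/80+ Tim4+ with intermediate MHC class II). In the chimeras the sort took WT cells as CD45.1+ CD45.2- and DKO cells by the reverse pattern, CD45.1- CD45.2+, so that genotype and CD45 allele cannot be told apart there. The labels used here name no cell-type-specific Cre, no age and no sex.

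Bhlhe40 and Bhlhe41 are basic helix-loop-helix proteins that repress transcription by binding short DNA elements called E-boxes, and they are known for their place in the circadian clock and in immune cells. Peritoneal macrophages patrol the lining of the belly and its fluid and depend on the factor Gata6 for much of their character, whereas alveolar macrophages live on the surface of the air sacs and clear surfactant. The 8 genes share no single pathway. Stard13 and Nedd4 encode intracellular proteins, the first with a START domain and the other a ubiquitin ligase. Prtn3 and Pglyrp1 encode antimicrobial proteins best known from neutrophil granules, and Pi16 encodes a protein of the CAP superfamily, to which Glipr2 also belongs. Emb and Cav1 encode proteins of the plasma membrane.

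DKO chimera library 1 was the shallowest, with 6.59 M reads recovered, and the other 11 libraries held 16.5 to 29.3 M reads. Bhlhe40 stood at 527 and 559 TPM in WT against 122 and 98.7 TPM in DKO steady-state alveolar libraries, at 940 and 664 against 243 and 193 TPM in chimeras, and at 213 and 247 against 85.5 and 65.7 TPM in the peritoneum. Bhlhe41 was not lower in any DKO library, with 3.68 and 1.90 TPM in WT and 75.4 and 83.2 TPM in DKO peritoneal libraries. Which part of either gene was deleted is not given in the sources used here, and a value summed over a gene cannot check a deletion of part of it, so the genotypes are those of the labels. Gata6, the defining factor of peritoneal macrophages, stood at 81.3 to 165 TPM in the 4 peritoneal libraries and at 0.221 TPM or less in the 8 alveolar ones. Siglec5, the SiglecF of the alveolar gate, stood at 123 to 595 TPM in alveolar and at 0.473 TPM or less in peritoneal libraries.

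The promoter windows of 3 of the genes are shown because these genes illustrate the main patterns of expression described below: Stard13 was nearly confined to peritoneal libraries, Glipr2 was lower in DKO cells of every source, and Emb was lower in DKO peritoneal but higher in DKO alveolar cells. Each window covers 250 bases before and 50 bases after the annotated start, from RefSeq on GRCm38.p6, and capitals mark the general E-box form CANNTG. The windows are chr5:151190144-151190443 on the minus strand for Stard13, chr4:43957452-43957751 on the plus strand for Glipr2 and chr13:117220323-117220622 on the plus strand for Emb.
Stard13: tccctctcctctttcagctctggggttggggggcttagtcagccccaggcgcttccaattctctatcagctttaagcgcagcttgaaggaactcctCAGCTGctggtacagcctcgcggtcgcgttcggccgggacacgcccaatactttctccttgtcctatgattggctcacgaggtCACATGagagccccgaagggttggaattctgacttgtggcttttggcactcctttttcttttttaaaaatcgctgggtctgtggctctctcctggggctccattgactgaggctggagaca
Glipr2: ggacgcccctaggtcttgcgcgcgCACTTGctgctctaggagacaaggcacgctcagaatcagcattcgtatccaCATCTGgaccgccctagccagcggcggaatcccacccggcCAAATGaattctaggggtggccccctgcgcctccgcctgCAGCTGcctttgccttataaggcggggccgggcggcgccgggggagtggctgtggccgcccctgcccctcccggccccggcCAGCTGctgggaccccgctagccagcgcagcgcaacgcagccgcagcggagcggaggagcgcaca
Emb: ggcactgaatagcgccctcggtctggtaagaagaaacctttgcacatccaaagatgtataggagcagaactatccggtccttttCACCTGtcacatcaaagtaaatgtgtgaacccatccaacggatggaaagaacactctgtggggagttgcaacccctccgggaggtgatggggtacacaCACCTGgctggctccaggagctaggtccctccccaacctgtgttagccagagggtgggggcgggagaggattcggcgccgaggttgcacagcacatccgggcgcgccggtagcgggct
The Stard13 and Emb windows held 2 CANNTG matches each and the Glipr2 window held 5. The table gave 10 windows for the 8 genes, since Cav1 and Nedd4 have 2 each. On either strand, CANNTG was found in 8 of these 10 windows and in 7 of the 8 genes, all but Prtn3, against 72.3% of 32851 windows of the same length across the genome. The stricter form CACGTG, which is contained in CANNTG and is the E-box that Bhlhe40 is known to bind, was in 0 of the 10 windows and in 7.15% of all windows. The motif AGATAA, of the kind bound by Gata6 and its relatives, was sought on both strands and was in the window of 1 gene, Pglyrp1, and in 11.2% of all windows. A match is a description of the letters, and no binding was measured here. The 8 genes lie on 8 different chromosomes (4 for Glipr2, 5 for Stard13, 6 for Cav1, 7 for Pglyrp1, 9 for Nedd4, 10 for Prtn3, 13 for Emb and 17 for Pi16). Cav1 shares chromosome 6 with the targeted genes, 318 tested features from Bhlhe40 and 521 from Bhlhe41.

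In peritoneal macrophages every WT library was above every DKO library for each of the 8 genes, which is how they were chosen. Among the 2 genes for intracellular proteins, Stard13, which encodes a START-domain protein, stood at 18.2 and 22.1 TPM in WT and at 0.921 and 0.999 TPM in DKO libraries. The DKO mean was thus 4.77% of the WT mean, and the log2 difference on the log2(TPM + 1) scale was -3.42. Nedd4, a HECT-type ubiquitin ligase, stood at 33.9 and 35.6 TPM in WT and at 7.50 and 3.54 TPM in DKO libraries, a log2 difference of -2.52. Both genes stayed detectable in the DKO libraries. Nedd4 came down to 444 and 204 reads from 2365 and 1976, and Stard13 to 56 and 59 reads from 1301 and 1258. These are bulk libraries, so fewer cells expressing a gene and less RNA per cell cannot be told apart for any of the 8 genes.

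The 3 genes for secreted or granule-type proteins had the highest WT peritoneal levels of the 8. Prtn3, the serine protease proteinase 3, stood at 168 and 275 TPM in WT and at 22.2 and 26.9 TPM in DKO libraries, a log2 difference of -3.09. Pi16, a CAP-domain peptidase inhibitor, stood at 165 and 208 TPM in WT and at 36.9 and 24.0 TPM in DKO libraries, a log2 difference of -2.60. Pglyrp1, a secreted protein that binds bacterial peptidoglycan, stood at 77.7 and 101 TPM in WT and at 17.0 and 11.9 TPM in DKO libraries, a log2 difference of -2.56. None of the 3 vanished: the DKO mean was 11.1% of WT for Prtn3, 16.3% for Pi16 and 16.2% for Pglyrp1.

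The remaining 3 genes encode proteins at membranes. Glipr2, a small CAP-superfamily protein attached to the Golgi membrane, stood at 17.8 and 28.0 TPM in WT and at 2.21 and 1.61 TPM in DKO peritoneal libraries, a log2 difference of -3.01. Emb, or embigin, an immunoglobulin-fold chaperone of monocarboxylate transporters, stood at 9.82 and 11.7 TPM in WT and at 0.460 and 0.473 TPM in DKO libraries, a log2 difference of -3.00. Emb retained the smallest share of its WT level among the 8 genes, 4.34%, which was 13 reads in each DKO library against 327 and 310 in WT. Cav1, the coat protein of the flask-shaped membrane pits called caveolae, stood at 38.7 and 28.4 TPM in WT and at 5.90 and 2.66 TPM in DKO libraries, a log2 difference of -2.77.

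**Figure D1:**
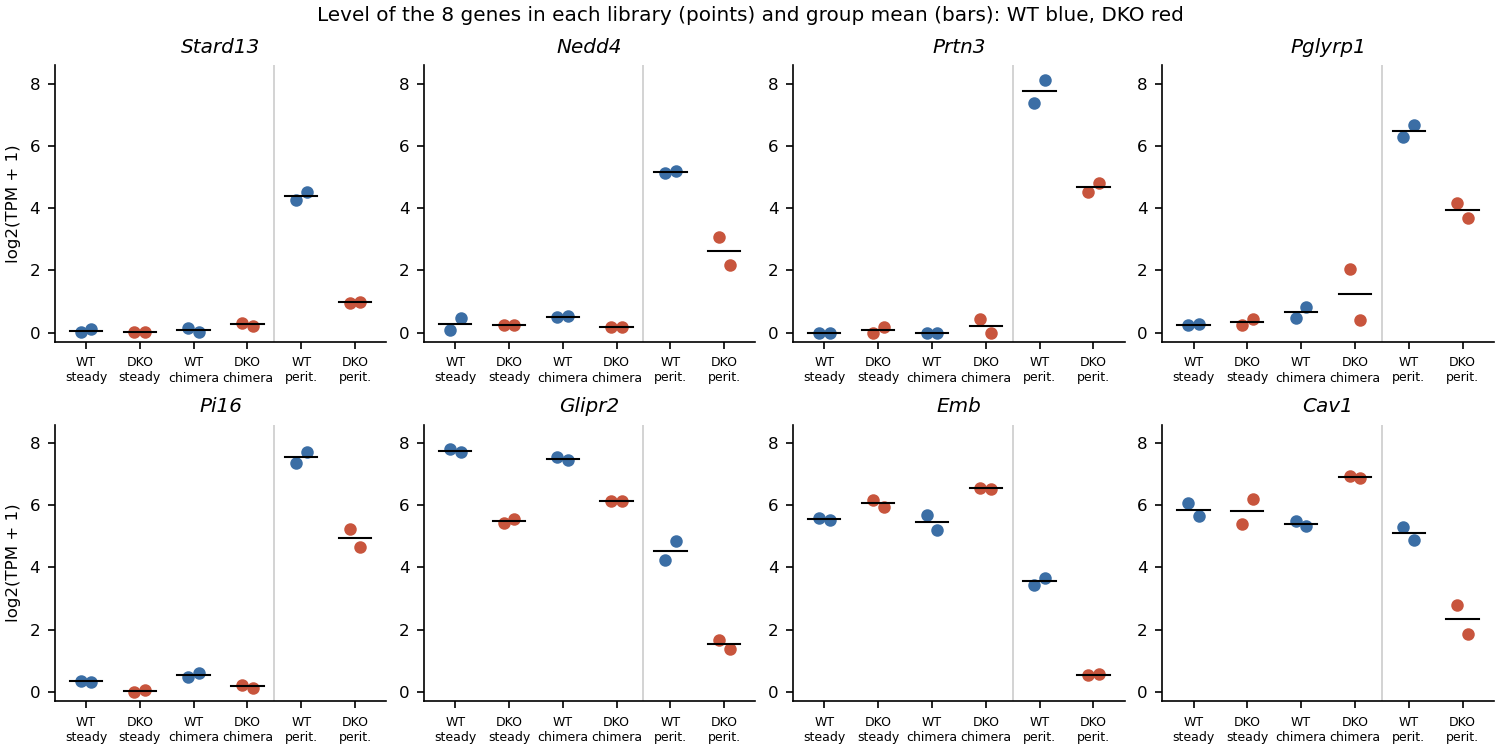
Level of each of the 8 genes as log2(TPM + 1) in the 12 libraries, with 1 point per library, a bar at the mean of each group of 2, WT in blue and DKO in red. Stard13, Nedd4, Prtn3, Pglyrp1 and Pi16 lie near 0 in the alveolar libraries, while Glipr2, Emb and Cav1 are expressed there, Glipr2 from 42.0 to 223 TPM.

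Ordered by the log2 difference among the 12303 features tested, the 8 genes took places 3, 4, 5, 7, 8, 10, 11 and 12 from the lowest. The other places among the first 12 were held by Spp1 (-3.78), Lpl (-3.46), Coro1a (-3.01) and Id2 (-2.65), which are not among the 8. Nedd4 at -2.52 was the last gene inside, and Slpi at -2.47 and St14 at -2.43 were the first outside, so that no gap in the values separates the 8 genes from the next. By the same limma fit, 22.9% of all features differed between DKO and WT peritoneal macrophages, 6.80% higher and 16.1% lower, and the median log2 difference of all features was -0.09. Since this comparison chose the genes, nothing is read from their place against that background. The order at the top depends on the added constant: with 0.1 in place of 1 TPM the difference of Stard13 became -4.25 and that of Emb -4.25. With any single peritoneal library left out, the differences of the 8 genes stayed between -2.07 (Nedd4) and -3.56 (Stard13). In the authors' deposited table, the peritoneal log2 fold changes of the 8 genes ran from -1.92 for Nedd4 to -3.96 for Stard13, with Emb (-3.71) in the next place.

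**Figure D2:**
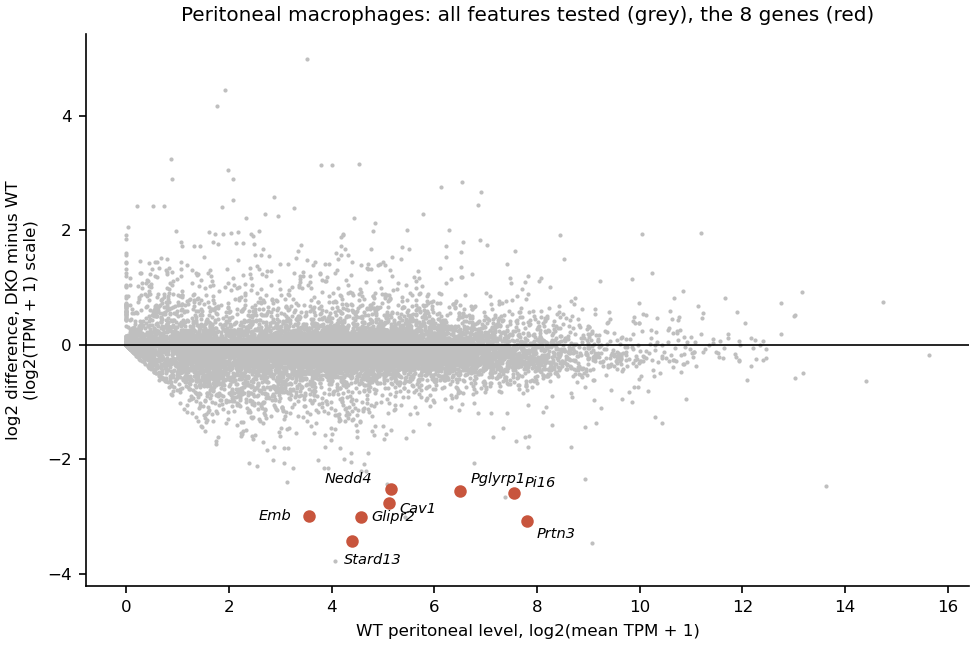
Each of the 12303 features tested as a grey point, with its mean level in WT peritoneal libraries, log2(mean TPM + 1), on the horizontal axis and its log2 difference of DKO over WT peritoneal libraries on the vertical axis. The 8 genes, in red, lie between -2.52 (Nedd4) and -3.42 (Stard13), at WT levels from 10.8 TPM (Emb) to 222 TPM (Prtn3).

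The WT levels divided the 8 genes in alveolar macrophages. Stard13, Nedd4, Prtn3, Pi16 and Pglyrp1 were under 1 TPM in at least 7 of the 8 alveolar libraries. Stard13 had 1 to 8 reads per alveolar library, Pglyrp1 1 to 6, Pi16 0 to 11 and Nedd4 2 to 23, while Prtn3 had 1 read in each of 2 DKO libraries and 0 in the other 6. As shares of all reads, WT peritoneal exceeded WT steady-state alveolar macrophages 453-fold for Stard13 (from 4 alveolar reads), 742-fold for Pi16 (from 9 reads) and 171-fold for Nedd4 (from 18 reads). Prtn3 was at least 1126-fold higher in peritoneal cells, computed against 3 reads over the alveolar group, where none was seen. These ratios share the WT peritoneal libraries with the choice of genes and are a description without a test. Even the reduced DKO peritoneal level of each of the 5 genes lay above every alveolar library of either genotype. For Stard13 that margin was from 0.921 TPM down to 0.250 TPM, its highest alveolar value.

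Glipr2, Emb and Cav1, by contrast, had higher mean levels in WT alveolar than in WT peritoneal macrophages, a description that shares libraries with the choice of genes. Between these 2 groups 68.0% of all features differed, 41.3% higher and 26.7% lower in alveolar cells. Glipr2 stood at 223 and 207 TPM in WT steady-state alveolar libraries, Emb at 47.6 and 45.5 TPM and Cav1 at 66.5 and 49.1 TPM. The lowest of these alveolar values lay above both WT peritoneal libraries for all 3 genes. The log2 difference, WT steady-state alveolar minus WT peritoneal, was 3.21 for Glipr2, 2.02 for Emb and 0.77 for Cav1.

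Ranked by mean TPM over the 6 groups, each of the 8 genes had its own order. Glipr2 was highest in WT steady-state alveolar cells (215 TPM), then in WT chimera (180 TPM), DKO chimera (69.1 TPM), DKO steady-state (44.1 TPM), WT peritoneal (22.9 TPM) and DKO peritoneal cells (1.91 TPM), and no neighbours in that order overlapped. Emb was highest in DKO chimera (92.5 TPM) and DKO steady-state cells (66.1 TPM), followed by WT steady-state (46.5 TPM) and WT chimera cells (43.2 TPM), whose libraries overlapped, and then by the peritoneal groups. Cav1 was highest in DKO chimera cells (119 TPM), and its next groups, WT and DKO steady-state and WT chimera cells, could not be set in order because their libraries overlapped between neighbours. For the other 5 genes WT peritoneal and then DKO peritoneal cells came first. Below these, the libraries of Stard13, Prtn3, Pglyrp1 and Nedd4 overlapped between at least 1 pair of neighbouring alveolar groups, and Pi16 ran from 0.463 TPM in WT chimeras to 0.0266 TPM in DKO steady-state cells without overlap between neighbours.

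Among the 8 genes, 2 passed the test between DKO and WT in steady-state alveolar macrophages (limma, adjusted p under 0.05 over all features tested), where 51.5% of all features passed in either direction, 12.2% higher and 39.4% lower. In chimeras 3 of the 8 passed, against 27.3% of all features, 13.7% higher and 13.6% lower. Glipr2, Emb and Cav1 were the 3 that passed, and the 5 genes near absence, which had entered the test through their peritoneal libraries, passed in neither setting. A share of 2 in 8 lies below the steady-state background and 3 in 8 lies above that of chimeras, and with so few genes neither is a result about the list.

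Glipr2 fell in DKO alveolar macrophages of both settings, as it was lower in the peritoneum. At steady state it stood at 223 and 207 TPM in WT and at 42.0 and 46.3 TPM in DKO libraries, and the groups did not overlap. The log2 difference was -2.26 ± 0.17 (SE, adjusted p = 7.61e-06, 2 libraries a group by limma). In chimeras the WT libraries held 186 and 173 TPM and the DKO libraries 69.3 and 68.9 TPM, again without overlap. The log2 difference there was -1.36 ± 0.17 (limma adjusted p = 0.000391). The difference between the settings, chimera minus steady state, was 0.90 ± 0.24 (limma adjusted p = 0.0287), so the fall was smaller in chimeras, but that call did not hold when any single alveolar library was left out or when libraries were rescaled by their median of ratios (0.63, adjusted p = 0.137). Among chimera-minus-steady-state differences 24.4% of all features passed, 19.9% higher and 4.52% lower, and 2 of the 8 genes did, Glipr2 and Cav1.

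Emb changed in the opposite direction in the lung from its peritoneal difference. At steady state it stood at 47.6 and 45.5 TPM in WT and at 71.4 and 60.9 TPM in DKO libraries, and both DKO libraries were above both WT libraries. The log2 difference was 0.49 ± 0.15 (limma adjusted p = 0.0178). In chimeras Emb stood at 50.5 and 36.0 TPM in WT and at 93.0 and 92.0 TPM in DKO libraries, a rise of 1.10 ± 0.15 on the log2 scale (limma adjusted p = 0.000516). The steady-state call was lost without either WT library (adjusted p = 0.0574 and 0.0893) or without DKO library 1 (0.38, adjusted p = 0.0997), while the chimera call held under every alternative tried (adjusted p 0.000293 to 0.0416). The rise in chimeras was not shown to differ from that at steady state (0.60 ± 0.21, limma adjusted p = 0.0588). That difference passed without DKO steady-state library 1 (0.72, limma adjusted p = 0.0397) or WT chimera library 1 (0.84, limma adjusted p = 0.0198), and came to 0.37 (limma adjusted p = 0.152) without WT chimera library 2 and to 0.34 (limma adjusted p = 0.293) after rescaling. In the authors' deposited table, the log2 fold change of Emb was 0.75 at steady state and 1.03 in chimeras.

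Cav1 rose in DKO alveolar macrophages of chimeras, and its steady-state values overlapped. In chimeras it stood at 43.8 and 39.1 TPM in WT and at 122 and 117 TPM in DKO libraries. The log2 difference was 1.50 ± 0.32 (limma adjusted p = 0.00676), and the groups did not overlap. At steady state the WT libraries held 66.5 and 49.1 TPM and the DKO libraries 41.6 and 73.2 TPM, with a log2 difference of -0.05 ± 0.32 (limma adjusted p = 0.922). The chimera-minus-steady-state difference of 1.55 ± 0.45 (limma adjusted p = 0.0341) was past the threshold as fitted, but not after rescaling (1.28, adjusted p = 0.0984) nor when 7 of the 8 alveolar libraries were left out singly. The chimera call itself held under every alternative tried (adjusted p 0.00676 to 0.0435). The DKO steady-state pair was the least alike of the 6 pairs of replicates, with a chi-square per feature of 29.8 against 5.18 to 12.1 in the others.

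**Figure D3:**
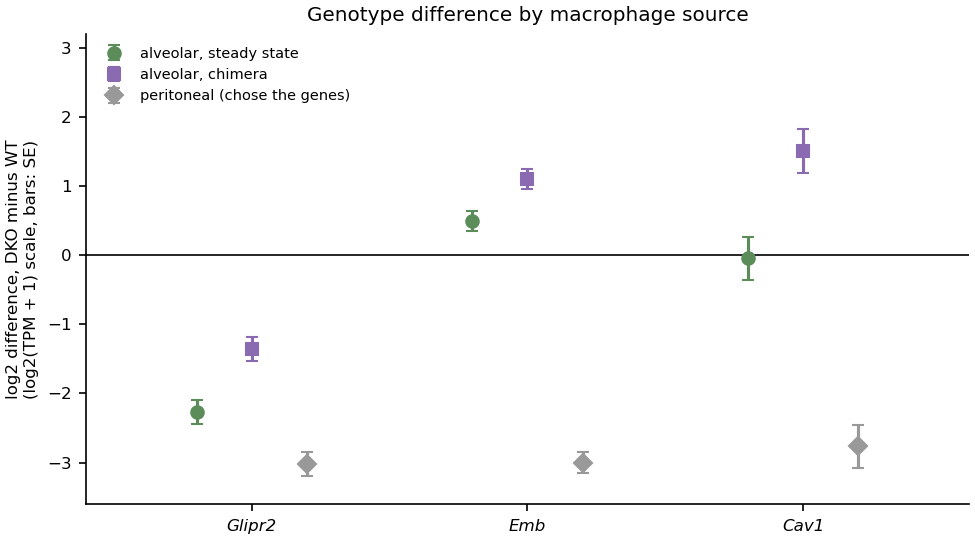
Log2 difference of DKO over WT on the log2(TPM + 1) scale for Glipr2, Emb and Cav1 in steady-state alveolar, chimera alveolar and peritoneal macrophages, with bars of 1 SE from the limma fit of 12 libraries. Glipr2 lies below 0 in all 3 sources (-2.26, -1.36 and -3.01), whereas Emb and Cav1 lie at -3.00 and -2.77 in the peritoneum and at 1.10 and 1.50 in chimeras.

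The 5 genes near absence in the lung were counted as reads to see what depth allowed. In chimera libraries Nedd4 had 17 and 23 reads (WT) against 2 and 6 reads (DKO), a DKO share of reads 0.276 times that of WT (95% counting interval 0.112 to 0.599). At steady state its 16 DKO against 18 WT reads gave 0.886 (0.423 to 1.84). Pi16 had 18 WT and 3 DKO reads in chimeras, a ratio of 0.230 (0.0435 to 0.789), and 9 WT and 1 DKO reads at steady state, a ratio of 0.111 (0.00253 to 0.799). These intervals cover counting error only, not the spread between libraries, and in the limma test none of these differences passed (adjusted p 0.174 to 0.925 over Nedd4 and Pi16). With 0.1 TPM as the added constant Pi16 passed in both settings, at -1.54 (limma adjusted p = 0.00244) and -1.30 (0.0109). It also passed at steady state when only the compared groups were fitted (-0.30, limma adjusted p = 0.0402).

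Prtn3 had 0 WT and 1 DKO reads in each alveolar setting, so that a lowering in DKO cells could not have been seen. Stard13 and Pglyrp1 had too few WT reads at steady state for a lowering of any size to be shown. The counting intervals of their DKO to WT ratios there ran from 0.0451 to 3.48 for Stard13 and from 0.171 to 17.9 for Pglyrp1. Stard13 had 4 WT and 2 DKO reads at steady state and 6 WT and 12 DKO reads in chimeras, where the DKO to WT ratio of read shares was 2.76 (0.960 to 8.98). Pglyrp1 had 2 and 3 reads at steady state and 7 and 8 in chimeras, with 6 of the 8 DKO chimera reads in the shallow library. Its chimera test passed only when the deeper DKO library was left out (1.39, limma adjusted p = 0.00426).

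Between the alveolar settings, WT chimera and WT steady-state macrophages were compared as well, and 41.0% of all features passed that test, 8.06% higher and 32.9% lower in chimeras. None of the 8 genes did by limma (adjusted p from 0.256 to 1, with 0 of 8 also at an unadjusted p under 0.05). Glipr2 stood at 186 and 173 TPM in chimeras against 223 and 207 TPM at steady state, a log2 difference of -0.26 ± 0.17. In a fit of only these 4 libraries Glipr2 passed (adjusted p = 0.0434). For Emb the difference was -0.12 and for Cav1 -0.46.

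Prtn3 and Pglyrp1 are known from neutrophils, so the rest of the neutrophil granule genes was examined in the peritoneal libraries. Besides the members, 4 of 10 listed granule genes were tested, and 3 of these fell in DKO peritoneal macrophages while none rose. Over all features 16.1% were lower and 6.80% higher in that comparison, which is the background for each peritoneal list count below. With 4 genes tested, the count is not read as a result about the list. Mmp9, a gelatinase, stood at 15.8 and 14.0 TPM in WT and 3.71 and 4.36 TPM in DKO libraries (-1.66 ± 0.14, limma adjusted p = 8.46e-05). Serpinb1a, an inhibitor of neutrophil serine proteases, stood at 308 and 318 TPM in WT and 143 and 97.0 TPM in DKO libraries (-1.40 ± 0.20, limma adjusted p = 0.00135). It was not confined to the peritoneum, at 255 TPM in both WT steady-state alveolar libraries. Lcn2, an iron-siderophore binding protein, stood at 8.68 and 12.2 TPM in WT and 5.33 and 2.91 TPM in DKO libraries (-1.18 ± 0.28, limma adjusted p = 0.0153). Cd177, the surface partner of proteinase 3 on human neutrophils, was on the list of neutrophil markers and stood at 30.7 and 31.5 TPM against 10.6 and 11.5 TPM (-1.42 ± 0.18, limma adjusted p = 0.000711).

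Most of the listed neutrophil markers were at or near 0 in the same libraries, but Csf3r, Cd177 and S100a8 were not. Whether neutrophils contributed to these libraries was not tested. Mpo, Elane, Camp, Ltf, Ngp and S100a9 were each at 0.430 TPM or less in all 4 peritoneal libraries, beside 168 and 275 TPM of Prtn3 in WT. Elane, which encodes the related protease neutrophil elastase, had the highest of these values. Ctsg, the serine protease cathepsin G, was higher, at 1.02 and 0.296 TPM in WT and 0.741 and 0.953 TPM in DKO libraries. Of the 13 neutrophil markers measured, 9 were under 1 TPM in both WT libraries and 10 in both DKO libraries. The summed level of the 13 was 195 to 210 TPM in WT and 165 to 175 TPM in DKO peritoneal libraries, of which Csf3r, the receptor for granulocyte colony-stimulating factor, made up 149 to 169 TPM. S100a8, at 8.03 and 6.30 TPM in WT and 4.97 and 2.68 TPM in DKO, was the other marker besides Cd177 that passed (-0.79 ± 0.24, limma adjusted p = 0.0423), though not after rescaling (adjusted p = 0.105).

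**Figure D4:**
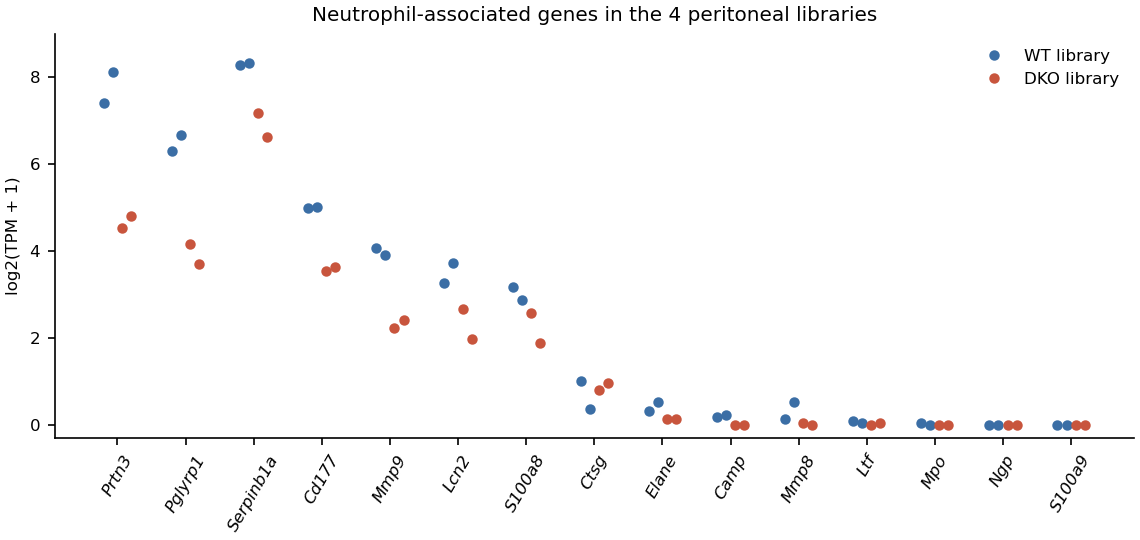
Level of Prtn3, Pglyrp1 and other genes associated with neutrophils as log2(TPM + 1) in the 2 WT (blue) and 2 DKO (red) peritoneal libraries. Prtn3, Pglyrp1, Serpinb1a, Cd177, Mmp9 and Lcn2 are lower in both DKO libraries, while Mpo, Ngp and S100a9 are at or near 0 in all 4.

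In alveolar cells, where Prtn3 and Pglyrp1 are near 0, 2 of the 4 tested granule genes rose and 1 fell at steady state, and 1 rose and 1 fell in chimeras. Over all features 12.2% rose and 39.4% fell at steady state, and 13.7% rose and 13.6% fell in chimeras. The other peptidoglycan recognition proteins (Pglyrp2, Pglyrp3 and Pglyrp4) were under 1 TPM in every library, so that Pglyrp1 was the one gene of its family with appreciable expression.

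The relatives of Cav1 were measured to see whether its coat partners followed it. Of 6 tested genes of the caveola coat, 3 fell and 1 rose in DKO peritoneal macrophages, against 1 and 1 after rescaling. The gene that rose was Pacsin2, from 96.2 and 93.0 TPM in WT to 116 and 122 TPM in DKO libraries (0.33 ± 0.06, limma adjusted p = 0.00383). Pacsin2 also rose at steady state (0.25 ± 0.06, limma adjusted p = 0.00682) and in chimeras (0.61 ± 0.06, limma adjusted p = 7.1e-05). Cav2, the partner of Cav1 in the coat and its direct neighbour on chromosome 6 with 0 tested features between, stood at 39.0 and 34.8 TPM in WT and 21.9 and 17.2 TPM in DKO libraries (-0.89 ± 0.11, limma adjusted p = 0.000478). In chimeras Cav2 rose with Cav1, from 55.8 and 51.1 to 74.7 and 75.6 TPM (0.48 ± 0.11, limma adjusted p = 0.00785). At steady state neither passed, with Cav2 at -0.11 ± 0.11 (limma adjusted p = 0.415). Ehd2, a coat ATPase at the caveolar neck, fell with Cav1 in the peritoneum, from 10.5 and 7.27 TPM in WT to 4.98 and 4.06 TPM in DKO libraries. That log2 difference was -0.83 ± 0.22 (limma adjusted p = 0.0247), though it did not pass after rescaling (limma adjusted p = 0.0528). In the lung Ehd2 fell as well, by -3.02 ± 0.22 at steady state (limma adjusted p = 5.96e-06) and -2.06 ± 0.22 in chimeras (limma adjusted p = 0.000145), where Cav1 rose. Ptrf, which encodes the main cavin, was low in the peritoneal libraries, at 0.430 to 0.894 TPM, and was not past the threshold there (0.25 ± 0.14, limma adjusted p = 0.236). Another cavin gene, Prkcdbp, fell in the peritoneum from 3.45 and 3.47 to 1.63 and 0.837 TPM (-1.02 ± 0.29, limma adjusted p = 0.0305). It did not pass after rescaling (limma adjusted p = 0.0546). In chimeras 2 of the 6 genes rose and 3 fell, and the cavin genes Ptrf (-0.45 ± 0.14, limma adjusted p = 0.0353) and Sdpr (-0.83 ± 0.20, limma adjusted p = 0.0134) were among those that fell. Ptrf and Sdpr were low in the chimera libraries, at 1.21 to 2.24 TPM and at 0.185 to 1.50 TPM.

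Stard8, a close relative of Stard13, rose from 44.8 and 42.0 TPM in WT to 71.1 and 80.5 TPM in DKO peritoneal macrophages (0.79 ± 0.10, limma adjusted p = 0.000593). Among 8 tested ubiquitin ligases and adaptors of the NEDD4 family, 2 rose in the peritoneum, Ndfip1 (0.38 ± 0.08, limma adjusted p = 0.00943) and Wwp1 (0.36 ± 0.10, limma adjusted p = 0.0287), and none fell. Nedd4l, the nearest relative of Nedd4, stood at 4.03 and 4.08 TPM in WT and 4.14 and 4.35 TPM in DKO peritoneal libraries. In the lung, where Nedd4 is nearly silent, Nedd4l rose in DKO cells by 1.62 ± 0.13 at steady state (limma adjusted p = 1.25e-05) and by 1.67 ± 0.13 in chimeras (limma adjusted p = 2.03e-05).

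Glipr2 and Pi16 had few expressed relatives, since 1 of 12 other CAP-superfamily genes was tested. That gene, Glipr1, stood at 12 and 8.14 TPM in WT and 8.50 and 8.48 TPM in DKO peritoneal libraries (-0.20 ± 0.15, limma adjusted p = 0.369). Emb belongs with Bsg and Nptn, which also escort monocarboxylate transporters or share the fold. Of 6 tested genes of this group, 1 rose and 2 fell in the peritoneum, against 1 and 1 after rescaling. Nptn rose slightly (0.35 ± 0.06, limma adjusted p = 0.00282), and the lactate exporter gene Slc16a3 fell from 71.3 and 106 TPM to 40.7 and 37.1 TPM (-1.14 ± 0.15, limma adjusted p = 0.000767).

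**Figure D5:**
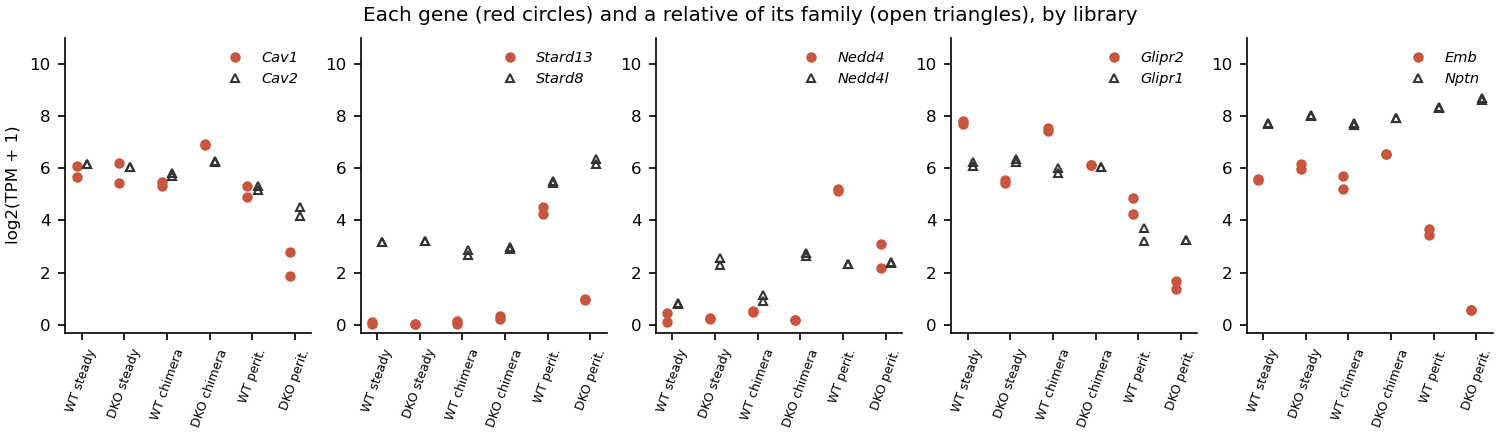
Level of Cav1, Stard13, Nedd4, Glipr2 and Emb (red circles) and of a family relative of each (open triangles) as log2(TPM + 1), 2 libraries for each of the 6 groups. Cav2 follows Cav1 in the peritoneal and chimera pairs, while Stard8 is higher in DKO peritoneal libraries (71.1 and 80.5 TPM) in which Stard13 is below 1 TPM.

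Markers of other cells in the peritoneal libraries were set beside the 8 genes, and their part in the differences was not tested. Of the mesothelial markers, Msln, Gpm6a, Wt1 and Efemp1 were at 0 in all 4 peritoneal libraries, and the summed level of 10 mesothelial markers was 0.143 to 0.437 TPM in WT and 0.107 to 0.140 TPM in DKO libraries. Fibroblast markers summed to 2.12 to 2.30 TPM in WT and 2.47 to 2.94 TPM in DKO libraries, with Col1a1 at 0.0406 TPM or less, and none of the 3 genes tested from these lists passed. Endothelial markers summed to 3.69 to 4.22 TPM in WT and 1.17 to 1.32 TPM in DKO libraries, and 2 of 5 tested fell, both from low levels. Pecam1 went from 0.643 and 1.14 to 0.0281 and 0.116 TPM (-0.81 ± 0.21, limma adjusted p = 0.0219). Egfl7 went from 2.52 and 2.68 to 0.970 and 0.704 TPM (-0.97 ± 0.27, limma adjusted p = 0.0267).

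Among blood cell markers, the dendritic cell gene Cd209a fell along with the 8 genes. Dendritic cell markers summed to 15.7 to 16.1 TPM in WT and 4.13 to 4.20 TPM in DKO libraries, most of it Cd209a, which went from 14.5 and 14.1 to 2.63 and 2.25 TPM (-2.16 ± 0.15, limma adjusted p = 2.15e-05) and was the 1 of 3 tested that passed. T and NK cell markers summed to 0.205 to 0.378 TPM over the 4 peritoneal libraries, mast cell and eosinophil markers to 0.342 to 3.84 TPM and B cell markers to 4.61 to 7.05 TPM, and none of the 3 genes tested, all of them B cell genes, passed. Of 7 tested markers of monocytes and small peritoneal macrophages, 5 rose and none fell in DKO cells, against 6.80% of all features higher and 16.1% lower. Among the 5 were Plac8 (3.24 ± 0.24, limma adjusted p = 3.85e-05) and Retnla (1.93 ± 0.34, limma adjusted p = 0.0034). Irf4 did not pass (limma adjusted p = 0.424). Nor did Ccr2, at 3.75 and 1.07 TPM in WT and 0.620 and 0.824 TPM in DKO libraries (-0.87 ± 0.31, limma adjusted p = 0.0720). The monocyte marker Ly6c2 was at 0.123 TPM or less in the peritoneal libraries and was not tested. The summed level of this list was 934 to 1834 TPM in WT and 3816 to 5862 TPM in DKO libraries. Most of that sum was the single gene Retnla, at 1383 and 730 TPM in WT and 2981 and 4922 TPM in DKO libraries.

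Of 11 tested markers of resident peritoneal macrophages, 4 fell and 1 rose. Garnl3 went from 182 and 252 to 81.5 and 58.9 TPM (-1.61 ± 0.18, limma adjusted p = 0.000342) and Gata6 from 141 and 165 to 91.9 and 81.3 TPM (-0.81 ± 0.14, limma adjusted p = 0.00364). Timd4, which encodes the Tim4 of the sort gate, stood at 812 and 759 TPM in WT and 772 and 816 TPM in DKO libraries. Summed over the list, these markers stood at 29527 to 30208 TPM in WT and 31018 to 40110 TPM in DKO libraries. The higher DKO sum came from Saa3, a serum amyloid A gene, at 9014 and 9251 TPM in WT and 21903 and 13675 TPM in DKO libraries (0.92 ± 0.49, limma adjusted p = 0.212). Without Saa3 the other 10 markers summed to 20513 and 20957 TPM in WT and 18207 and 17344 TPM in DKO libraries. Of the 11 alveolar macrophage markers tested, 2 rose and 2 fell in peritoneal cells.

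Correlations across the 12 libraries restate the split into genes nearly absent from and genes expressed in the lung, since the alveolar libraries that define it are among the 12. Pearson correlations of log2(TPM + 1) were 0.907 to 0.994 within the 5 genes nearly absent from the lung, 0.802 to 0.943 within Glipr2, Emb and Cav1, and -0.754 to -0.218 between the sets. These values rest on 12 libraries of 6 groups, and libraries of a group share their source. The tested feature most like Emb, and also the one most like Cav1, was Cav2 (r = 0.979 and 0.952 over 12 libraries), followed by Relt and Pla2g4a for Emb and by Cnot6 and Praf2 for Cav1. Nup210 (r = 0.994), Rab3d and Lrrc59 were most like Glipr2.

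Among the peritoneal-restricted genes, the feature most like Pi16 was Hdc (r = 0.999), the histamine-forming enzyme, which stood at a mean of 109 TPM in WT and 25.9 TPM in DKO peritoneal libraries, followed by Ubash3a and Gm6484. Nedd4 was followed by Rprm (r = 0.997), Cuedc1 and Itgb3, the integrin beta subunit of the vitronectin receptor, which stood at 19.8 and 4.56 TPM on average in WT and DKO peritoneal libraries. Lamb2 (r = 0.992), Chn2 and Tmem98 were nearest to Stard13, and Tnik (r = 0.999), Capsl and Ube2ql1 to Prtn3. Reck (r = 0.995), Morc4 and Stag3 were nearest to Pglyrp1. Some of these features were close to the filter of 1 TPM. Reck stood at a mean of 1.15 TPM in WT and 0.594 TPM in DKO peritoneal libraries, and Capsl at 1.06 and 0.497 TPM. For these 5 genes the variation lies almost wholly in the 4 peritoneal libraries, which chose them. High correlations with other peritoneal features lower in DKO cells are therefore built in, and nothing is read from them.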

How the data were processed

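RNA-seq of 12 libraries (6 groups of 2, described as biological replicates in the series design) was analysed. ChIP-seq, held by 6 further samples, was not analysed here. Per the submitters' processing notes, the tools were DESeq2 1.2.10, HTSeq 0.5.3, TopHat 1.4.1, Bowtie2 and Bowtie 1.0.0, and GRCm38.p3 and mm9 are named as builds, with no role stated for any of them. The authors deposited TPM per library in 1 table for each source, and TPM from the 3 tables were fitted together, so that levels set across sources rest on the common scale of TPM. Beside it the authors deposited a log2 fold change with its adjusted p-value, and a signal column with mean normalised counts. Symbols were taken from feature names with their suffixes removed, and 474 features marked as duplicates were matched to no list.

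TPM keeps no depth, so the reads were recovered from TPM and the deposited mean signal. The low values all came out within 0.01 of a whole number, and depth was 6.59 to 29.3 M reads. Intervals of read ratios are 95% exact conditional binomial ones, which cover counting error alone, and a group without reads was set to 3 reads.

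Features with at least 1 TPM in at least 2 libraries entered limma 3.58.1 (R 4.3.3) on the log2(TPM + 1) scale (6 group means, intensity trend, 6 residual degrees of freedom, two-sided, Benjamini-Hochberg over 12303 features). The fit was run on simulated data drawn around WT steady-state levels, with the same spread in all libraries and changes only in well-read genes. That run does not cover genes near 0 or the unequal spread of the replicates. The log2(TPM + 1) scale understates changes of low genes, and the SE of a gene may be too small in 1 source when it is near 0, and so nearly without spread, in the others. A TPM column is a composition. Dividing libraries by a median-of-ratios factor moved the median log2 difference of all features from -0.22 to 0.00 at steady state, from 0.01 to 0.00 in chimeras and from -0.09 to 0.02 in the peritoneum.

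The 8 genes and the lists of relatives and markers were chosen with earlier results of these data known. Named genes are the 8, list genes that passed a test or lie near 0 where that bears on one of the 8, the 3 features most correlated with each, and the lowest peritoneal differences. Alternatives were another pseudocount, no filter, rescaling, only the compared groups, a replicate block, no trend, and each library left out.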

Additional observations from a re-analysis of the deposited data

Results flagged for a closer look

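Comparisons between sources for the 8 genes set 6 results apart. In the peritoneum both DKO libraries of Emb were below both WT libraries, whereas in steady-state alveolar macrophages both were above, with a log2 difference of 0.49, and likewise in chimeras, with 1.10. Cav1 was lower in both DKO peritoneal libraries and higher in both DKO chimera libraries, with a chimera log2 difference of 1.50. Stard13, lower in the DKO peritoneum, had 12 reads in DKO against 6 in WT chimera libraries, and both DKO chimera libraries had a higher TPM than both WT ones. These 4 differences between sources were not tested, since the peritoneal libraries chose the genes. Between the alveolar settings the difference itself passed the test for Glipr2, whose genotype effect was 0.90 higher in chimeras than at steady state, and for Cav1, with 1.55. Neither of these 2 calls held after rescaling.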

How the results depend on the processing

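The lower Glipr2 and higher Emb and Cav1 of DKO chimeras and the lower Glipr2 of DKO steady-state macrophages kept direction and call under every alternative run. Fitting only the compared groups, without the peritoneal libraries, gave a limma adjusted p of 0.00318 for Glipr2 at steady state and 0.0416 for Emb in chimeras. With only the compared groups in the fit, features past the threshold numbered 4069 in place of 6337 at steady state, 1608 in place of 3354 in chimeras and 1206 in place of 3000 for chimera minus steady state, and 1 of the 8 genes (Glipr2) in place of 0 passed between WT chimera and WT steady state. Of the 8 genes, the 2 past the threshold for chimera minus steady state became 0 without a filter, 0 after rescaling and 1 with the replicate block (Glipr2 lost, adjusted p = 0.0627). Leaving out single libraries gave 4511 to 6424 features and 1 to 2 of the 8 genes at steady state, 2000 to 3178 and 3 to 4 in chimeras, 1040 to 4185 and 0 to 1 for chimera minus steady state, 2836 to 3786 and 0 to 0 between WT settings, 1236 to 1644 in the peritoneum and 7363 to 7492 between WT sources. The sign of Cav1 at steady state turned to 0.21 after rescaling and ranged from -0.45 to 0.35 with single libraries left out, and that of Emb between WT settings turned to 0.11 after rescaling and ranged from -0.36 to 0.12; none of these values passed, and the cause was not tested. Rescaling changed the split of features into higher and lower from 1495 and 4842 to 2513 and 2206 at steady state, from 837 and 1976 to 1464 and 968 in the peritoneum, from 2444 and 556 to 835 and 1250 for chimera minus steady state, from 992 and 4047 to 2466 and 2194 between WT settings, and from 5081 and 3287 to 4207 and 4256 between WT sources. The labels do not say whether same-numbered WT and DKO libraries are paired, for instance by coming from the same chimeric mice. Deviations of same-numbered libraries correlated at -0.04 (steady state), 0.13 (chimeras) and -0.06 (peritoneum), which cannot settle it. With the replicate block 6064 (steady state), 3072 (chimeras) and 2511 (peritoneum) features passed. Depth limits the 5 genes near 0 in the lung, which had 0 to 23 reads per alveolar library.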
